A study of Mus musculus with 2 samples.

Results

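Expression of 9 genes that set growth against restraint in T cells was compared between 2 mouse lymphomas by RNA sequencing. The genes are Foxo1, Foxo3, Pik3ip1, Cdkn1b, Nf1, Tet2, Runx1, Myc and Ccnd2, and they were taken by symbol from a deposited table of 8249 genes, where all 9 were found. They had been picked with their values in these tumours known, so their values are a description and none was tested. One tumour lay in a Peyer's patch, one of the lymphoid nodules along the small intestine, in a 26-week-old mouse, and the other in the thymus of a 30-week-old mouse. Both mice carried the strain label L-DKO, which the sources used here do not spell out, and the series title speaks of raised E protein levels. Both tumours were negative for staining with the CD1d tetramer, the reagent that marks invariant natural killer T cells. With 1 library per tumour there is no replicate check, no p-value and no interval, and the site, the mouse and the age cannot be told apart. Values are FPKM, fragments scaled by transcript length and by all mapped fragments of the library. Each difference is on the log2(FPKM + 1) scale, with the thymic value subtracted from the Peyer's patch value, so that 2 stands for 4-fold, the bound used for counting.

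FOXO factors are transcription factors that keep resting lymphocytes out of the cell cycle and switch on genes of survival and homing. The kinase AKT, which acts downstream of PI3-kinase, phosphorylates them and sends them out of the nucleus when a T cell is stimulated. PIK3IP1 is a membrane protein that inhibits PI3-kinase, and Cdkn1b encodes p27, an inhibitor of cyclin-dependent kinases whose gene FOXO factors can activate. Nf1 encodes neurofibromin, which switches RAS off. TET2 oxidises methylated cytosine in DNA, RUNX1 is a transcription factor of thymocyte development, and loss of either is known from leukaemias. MYC drives growth and ribosome production, and cyclin D2, encoded by Ccnd2, partners the kinases that start the cell cycle.

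The labels' protocols speak of lysed tumour tissue and the series' design text of sorted cells, so purity is not settled. All 15 listed T cell markers were measured, with a summed level of 5045 FPKM in the Peyer's patch lymphoma and 2841 FPKM in the thymic lymphoma. Trac, the alpha constant gene of the T cell receptor, was at 1599 and 1038 FPKM. Of the 15, 14 were higher in the Peyer's patch lymphoma, and Cd3e, which encodes a CD3 chain of the receptor complex, was at 172 and 561 FPKM. Markers of other cells differed too. The 4 measured of 11 listed erythroid genes summed to 2425 and 96390 FPKM, and the 5 measured of 10 MHC class II genes to 336 and 1874 FPKM. Of these 5, 4 were higher in the thymic lymphoma, and H2-Ob, at 49.1 and 17.8 FPKM, was not. Fewer of the other markers were in the table, and they summed to 165 and 295 FPKM for 2 of 12 B cell genes, 277 and 758 for 3 of 11 macrophage genes, and 10.1 and 84.8 for 1 of 9 neutrophil genes. The B cell genes differed in opposite directions, with Cd79b at 42.9 and 242 FPKM and Cd72 at 122 and 53.5. Fibroblast and endothelial genes (2 of 12) differed in opposite directions, with the fibroblast gene Fn1 at 16.0 and 84.8 FPKM and the endothelial gene Pecam1 at 157 and 80.3, and summed to 173 and 165 FPKM. Epithelial genes (2 of 11) summed to 104 and 79.4 FPKM. Every gene of the table lies above 0 in both tumours, so a marker without any reads would not be listed. The part of these other cells in the results that follow was not tested. In such bulk samples fewer cells of a type and less RNA per cell cannot be told apart.

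Of the 9 genes, 8 stood higher in the thymic lymphoma and 1, Myc, in the Peyer's patch lymphoma. The 8 were all at least 4-fold apart, and Myc was not. Fewer of the 8 reached that bound with libraries rescaled to the same total (5), with the deposited standard scores (4) or with 5 added to each FPKM (4), and none changed direction. Of the 8245 genes compared, 12.0% were higher by 4-fold or more in the thymic lymphoma, 7.84% in the Peyer's patch lymphoma, and 19.9% were apart in either direction, a background from which nothing is read here because the genes were chosen on this same contrast. The 12.0% became 7.77% with the same total, 7.57% with the scores and 7.90% with 5 added to each FPKM. Of all genes 4-fold apart 60.5% were higher in the thymic lymphoma, a share of 34.9% with the same total and 33.9% with the scores, which moved the median of all genes to 0.57 and 0.48. The median difference of the 9 genes was -2.44, and that of all genes was 0.05.

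**Figure D1:**
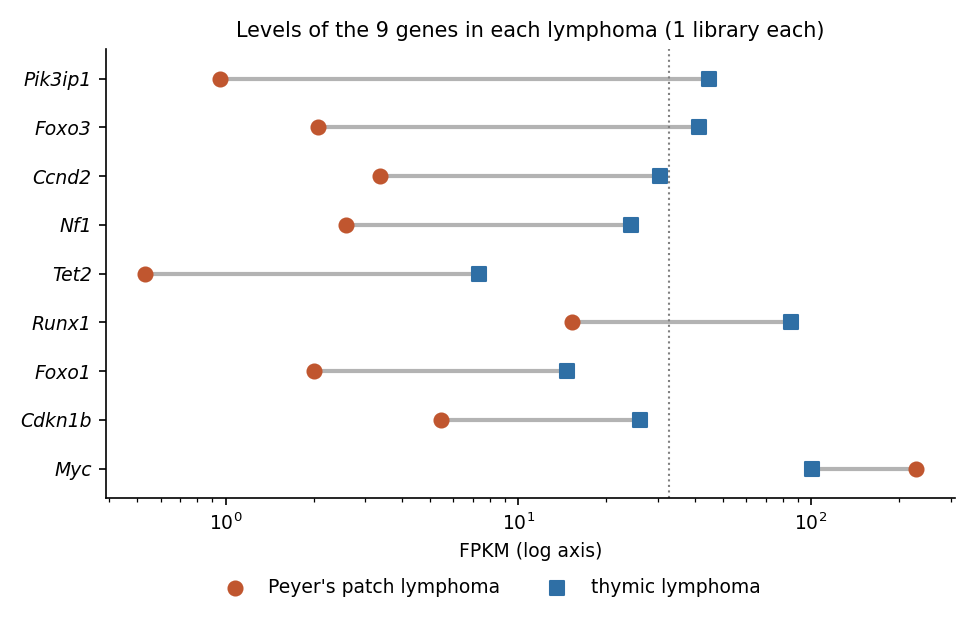
FPKM of the 9 genes on a log axis, in order of their difference in log2(FPKM + 1), with a circle for the Peyer's patch lymphoma, a square for the thymic lymphoma and 1 library for each. The dotted line is the median gene of the thymic lymphoma at 32.6 FPKM, and Myc is the 1 gene whose circle lies to the right of its square.

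The order of the 9 levels was led by Myc in both tumours and closed by Tet2 in both. In the Peyer's patch lymphoma the levels were spread wide. Myc stood at 229 FPKM and Runx1 at 15.2 FPKM, and the other 7 lay between 0.530 FPKM for Tet2 and 5.43 FPKM for Cdkn1b. In the thymic lymphoma they were close together, from 7.32 FPKM for Tet2 through Foxo1 at 14.7, Nf1 at 24.3, Cdkn1b at 25.9, Ccnd2 at 30.5, Foxo3 at 41.5, Pik3ip1 at 44.7 and Runx1 at 85.4 to Myc at 100.3 FPKM. The median gene of the table stood at 31.2 FPKM (Peyer's patch) and 32.6 (thymic). Of the 9 genes, 7 were under 10 FPKM in the Peyer's patch lymphoma, where 22.2% of all genes were, and 1 of the 9 in the thymic lymphoma, where 18.1% were.

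**Figure D2:**
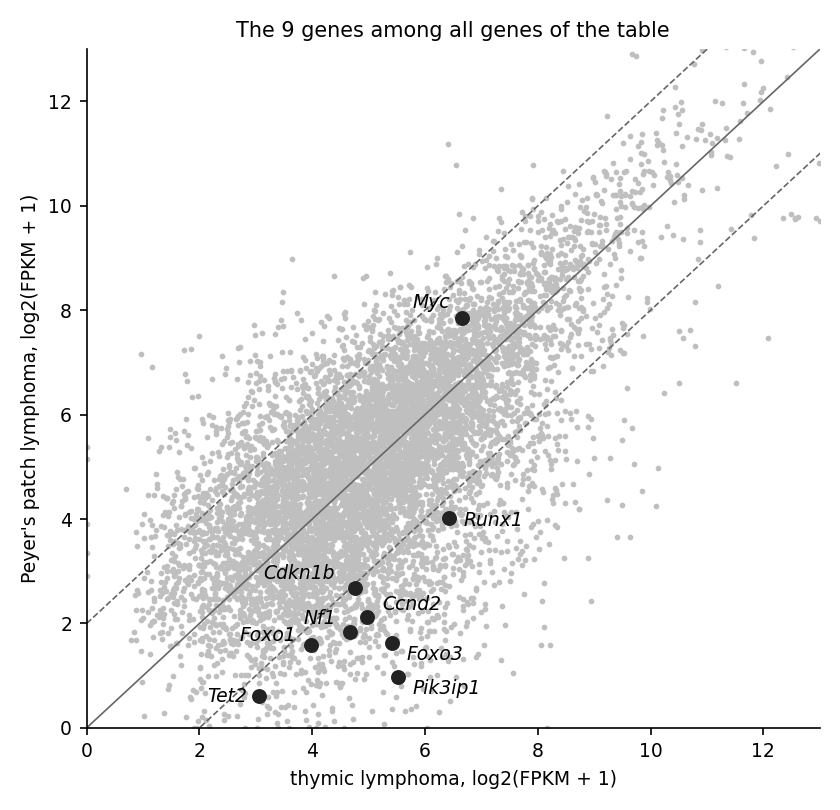
Each grey point is a gene, at its log2(FPKM + 1) in the thymic lymphoma (x axis) and in the Peyer's patch lymphoma (y axis), black points are the 9 genes, the solid line is equality and the dashed lines are 4-fold. Axes end at 13, which leaves out 42 genes, and 8 of the 9 genes lie below the lower dashed line while Myc lies between the solid and the upper dashed line.

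The upstream DNA of the genes was read for the letters that FOXO factors and E proteins bind, since both kinds of factor bear on the study. RefSeq entries of build GRCm38.p6 gave 8 windows for 7 of the genes, each covering the 250 bases before a transcription start, with 2 for Runx1. Ccnd2 and Myc had no entry. The motifs searched on both strands were the forkhead core TTGTTT, the longer forkhead site GTAAACA and the E-box CANNTG, none of which overlapped another in these windows. The E-box as searched leaves its 2 middle bases open and is not particular to E proteins. The 4 windows that hold a motif follow, with the motifs in capitals.
Pik3ip1, chr11:3330481-3330730, plus strand: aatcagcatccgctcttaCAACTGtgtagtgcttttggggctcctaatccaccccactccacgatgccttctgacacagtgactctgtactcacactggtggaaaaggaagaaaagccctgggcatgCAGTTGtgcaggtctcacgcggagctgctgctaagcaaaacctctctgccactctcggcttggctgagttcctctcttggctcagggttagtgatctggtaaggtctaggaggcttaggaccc
Cdkn1b, chr6:134920151-134920400, plus strand: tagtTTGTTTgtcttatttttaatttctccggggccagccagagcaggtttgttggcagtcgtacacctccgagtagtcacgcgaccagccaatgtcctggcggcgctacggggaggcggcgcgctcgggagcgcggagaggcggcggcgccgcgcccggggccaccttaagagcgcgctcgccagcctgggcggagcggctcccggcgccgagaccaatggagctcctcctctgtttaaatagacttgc
Foxo1, chr3:52268087-52268336, plus strand: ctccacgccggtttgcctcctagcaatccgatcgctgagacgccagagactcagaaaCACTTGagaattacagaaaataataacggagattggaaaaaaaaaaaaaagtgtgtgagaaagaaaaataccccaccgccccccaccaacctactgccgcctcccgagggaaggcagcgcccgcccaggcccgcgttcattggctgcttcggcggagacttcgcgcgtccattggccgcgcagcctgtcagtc
Runx1, distal start, chr16:92826075-92826324, minus strand: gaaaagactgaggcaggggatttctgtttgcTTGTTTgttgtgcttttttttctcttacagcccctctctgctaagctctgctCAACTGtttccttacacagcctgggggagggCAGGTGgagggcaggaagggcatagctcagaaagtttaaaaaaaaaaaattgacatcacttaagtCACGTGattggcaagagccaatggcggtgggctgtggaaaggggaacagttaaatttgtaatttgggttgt

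The forkhead core was in 2 of the 8 windows, those of Cdkn1b and of the distal Runx1 start, and in 12.6% of the 7568 windows of genes in the table. It began 246 bases before the start in Cdkn1b and 219 bases before it in Runx1. The longer site was in 0 of the 8 windows and in 2.01% of those of the table. An E-box was in 3 of the 8 windows against 55.9% of those of the table. Pik3ip1 had 2 E-boxes, CAACTG 232 bases and CAGTTG 123 bases before its start, and Foxo1 had 1, CACTTG, 193 bases before its start. Runx1 had 3 at its distal start, CAACTG at 167, CAGGTG at 136 and CACGTG at 71 bases. The windows of Foxo3, Nf1, Tet2 and the second Runx1 start held none of the motifs. These windows are rich in G and C, at 83.6% in Tet2 and 76.4% in Foxo3 against a median of 60.4% over the table. A match is a string of letters, and binding was not measured.

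Pik3ip1, the PI3-kinase inhibitor, had the widest difference of the 9 genes. It had 0.959 FPKM in the Peyer's patch lymphoma and 44.7 FPKM in the thymic lymphoma, 46.6-fold apart, with a difference of -4.54. It ranked 81 of the 8245 genes counted from the thymic side. Within its own library it lay at percentile 1.36 of all levels in the Peyer's patch lymphoma and at 59.7 in the thymic lymphoma. The error of a value under 1 FPKM cannot be given without counts, so the fold is uncertain.

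Foxo1 and Foxo3 were both low in the Peyer's patch lymphoma, while their relative Foxo4 was level. Foxo3 had 2.08 FPKM in the Peyer's patch lymphoma and 41.5 in the thymic lymphoma, a difference of -3.79. Foxo1 was at 2.01 and 14.7 FPKM, a difference of -2.38. Foxo4, which encodes a factor that binds the same DNA motif, was at 15.0 and 14.8 FPKM, a difference of 0.02 whose sign changed with the scaling. In the Peyer's patch lymphoma Foxo4 was thus the highest of the 3, at 7.47 times Foxo1 and 7.24 times Foxo3. In the thymic lymphoma Foxo3 was the highest, and Foxo4 stood at 1.01 times Foxo1. Foxo6 was on the list and is not among the measured genes.

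Listed FOXO target genes leaned toward the thymic lymphoma, mostly by less than 4-fold. The list does not separate targets that FOXO factors activate from targets that they repress, so its counts carry no direction of regulation. Of 30 listed genes 25 were measured, and 22 of these lay below 0, with a median of -0.75 against 0.05 for all genes, of which 51.4% lay above 0. Pik3ip1, Ccnd2 and Cdkn1b count here although they were picked on this contrast, and without them 19 of 22 lay below 0, with a median of -0.67. Libraries rescaled to the same total left 16 below 0, although 22 still lay below the shifted median of all genes, and 15 and 20 did with the deposited scores. Of the 25, 7 were higher by 4-fold or more in the thymic lymphoma and 0 in the Peyer's patch lymphoma. The counts were 4 and 0 with the same total and 4 and 1 with the scores. Among the 7 without rescaling are Pik3ip1, Ccnd2 and Cdkn1b themselves. The other 4 of 22 were Bach2, Klf6, Tnfsf10 and Sesn3. Bach2, a repressor that holds back effector differentiation of lymphocytes, was at 0.802 FPKM (Peyer's patch) and 22.1 (thymic). Klf6, also an immediate early gene, was at 0.326 and 10.5 FPKM, and Tnfsf10, which encodes the death ligand TRAIL, at 4.14 and 26.3 FPKM. Sesn3, a sestrin that restrains mTOR, was at 6.67 and 32.6 FPKM. The homing genes that FOXO1 maintains in naive T cells differed less. Klf2 was at 67.6 and 69.6 FPKM, S1pr1 at 5.68 and 9.87, and Ccr7 at 11.1 and 35.0. The 3 targets above 0 were Sesn1 (7.70 and 2.52 FPKM), Rictor (12.5 and 6.35) and Rbl2 (110 and 62.1).

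Genes that keep lymphocytes quiescent were split. Of 30 listed, 24 were measured, with 13 below and 11 above 0, and 8 were higher by 4-fold or more in the thymic lymphoma and 1 in the Peyer's patch lymphoma. With the same total the split was 12 and 12, and 4 in place of 8 were 4-fold higher in the thymic lymphoma, as with the scores. Against the median of all genes the split was 15 below and 9 above, without rescaling and on both of those scales. Of these 8, 5 are among the genes studied, Pik3ip1, Foxo3, Runx1, Foxo1 and Cdkn1b. The other 3 were Slfn2, whose loss breaks T cell quiescence in mice (0.243 and 13.7 FPKM), the RNA-binding protein gene Zfp36l1 (1.51 and 27.4) and the anti-proliferative gene Btg1 (35.1 and 157). Zfp36l2, a close relative of Zfp36l1, went the other way at 284 and 136 FPKM. Satb1, a chromatin organiser of thymocytes, was at 3383 and 597 FPKM and was the 1 gene higher by 4-fold or more in the Peyer's patch lymphoma. Without the genes under study the other 19 had a median of 0.03.

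The rest of the PI3-kinase pathway did not lean one way. Of its 22 measured activating genes, 12 lay below and 10 above 0, a split that turned with the scaling. Against the median of all genes the split stayed at 12 and 10 with the same total and with the scores. Without rescaling 2 were higher by 4-fold or more in the thymic lymphoma and 1 in the Peyer's patch lymphoma. That 1 was Mtor, the kinase at the centre of growth control, at 109 FPKM in the Peyer's patch lymphoma and 4.50 in the thymic lymphoma, a difference of 4.32. Pik3cb, the beta catalytic subunit, was at 3.25 and 50.4 FPKM, and Pik3cd, the delta subunit that lymphocytes rely on, at 82.4 and 34.3 FPKM. Gsk3b, which the list holds although it is a kinase that AKT inhibits, was at 2.17 and 33.6 FPKM and was, with Pik3cb, one of the genes counted as 4-fold higher in the thymic lymphoma. Akt1 was at 65.1 and 69.5 FPKM, and Akt2 at 74.3 and 90.3.

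The restraining arm of the same pathway was divided as well. Of 23 measured genes 3 were higher by 4-fold or more in the thymic lymphoma and 4 in the Peyer's patch lymphoma, with a median of 0.25. The counts were 2 and 6 with the same total and 2 and 9 with the scores. Those scales shift all genes the same way, to 641 and 1197 with the same total and 624 and 1218 with the scores. Against the median of all genes 10 of the 23 lay below and 13 above, without rescaling and with the same total. With the scores 11 lay below it and 12 above. Pik3ip1 and Sesn3 were on the thymic side with Eif4ebp2, a repressor of translation that mTOR switches off (1.10 and 16.2 FPKM). On the Peyer's patch side were the lipid phosphatases Inpp4a (14.9 and 1.18 FPKM) and Inpp4b (372 and 82.3), the AMP kinase subunit Prkab1 (105 and 17.7) and Ddit4, an inhibitor of mTOR (225 and 55.1). Inpp5d, which encodes the lipid phosphatase SHIP1, was at 56.7 and 55.7 FPKM. The partners of the TSC complex stood in opposite directions, with Tsc1 at 3.95 and 17.9 FPKM and Tsc2 at 30.5 and 12.5.

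Cdkn1b, the p27 gene, was the gene nearest to the 4-fold bound. It had 5.43 FPKM in the Peyer's patch lymphoma and 25.9 in the thymic lymphoma, a difference of -2.07. Among related brakes on the cell cycle the values were closer. The retinoblastoma gene Rb1 was at 34.5 and 49.4 FPKM and its relative Rbl1 at 13.9 and 22.7. Rbl2, the pocket protein typical of resting cells, was at 110 and 62.1 FPKM. Other CDK inhibitor genes were on the list and are not among the measured genes. Skp2, the receptor of the ligase that marks p27 for destruction, was at 31.5 and 11.3 FPKM, and its cofactor Cks1b at 131 and 81.6. The level of Skp2 was 5.81 times that of Cdkn1b in the Peyer's patch lymphoma and 0.436 times in the thymic lymphoma. Of all 12 measured genes of p27 and MYC turnover, 7 lay below and 5 above 0, and the sign of their median changed with the scaling. Rbx1, a subunit of many cullin ligases, was at 9.99 and 44.9 FPKM and was past 4-fold, though not with the same total or the scores.

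Ccnd2, although a growth gene, was on the same side as the brakes. It had 3.37 FPKM in the Peyer's patch lymphoma and 30.5 in the thymic lymphoma, a difference of -2.85. Ccnd3, the D cyclin that developing T cells depend on, was at 364 and 177 FPKM. Ccnd3 was the higher of these D cyclins in both tumours, at 108 times Ccnd2 in the Peyer's patch lymphoma and 5.78 times in the thymic lymphoma. The kinase partner Cdk4 was at 121 and 80.5 FPKM, and the E cyclins Ccne1 and Ccne2 at 41.8 and 27.9 and at 187 and 84.9 FPKM. Of the 13 measured G1 cyclin and kinase genes, 8 lay above 0 and 0 reached 4-fold toward the Peyer's patch lymphoma. Toward the thymic lymphoma 2 did, Ccnd2 and E2f2, an E2F factor at 0.611 and 8.87 FPKM. With the same total 1 reached 4-fold toward the Peyer's patch lymphoma and 2 toward the thymic lymphoma, and with the scores 1 and 1. The 21 mitosis genes, with a summed level of 1340 and 843 FPKM, had 16 above 0 and a median of 0.87.

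Nf1, the brake on RAS, had 2.58 FPKM in the Peyer's patch lymphoma and 24.3 in the thymic lymphoma. The difference was -2.82, and the gene lay at percentile 4.62 of all levels in the former and 41.6 in the latter. Other RAS GTPase-activating proteins were close to level. Rasa1 was at 79.8 and 70.1 FPKM, Rasa2 at 31.3 and 29.3, Rasal3 at 52.6 and 38.8, and Rasa3 at 8.38 and 13.9. Rasa1 stood at 31.0 times Nf1 in the Peyer's patch lymphoma and 2.88 times in the thymic lymphoma. Of 11 measured negative regulators of RAS, 5 lay below and 6 above 0. Spry2, an antagonist of RAS signalling, was listed at almost 0, 0.0715 FPKM, in the Peyer's patch lymphoma and at 9.38 in the thymic lymphoma, and the adaptor Dok1 at 40.4 and 6.33. On the activating side 12 of 16 measured genes lay below 0, with a median of -0.51, and 8 of 16 did with the same total or the scores. Those scales shift the median of all genes, and 12 and 13 of the 16 still lay below it. Nras was at 9.98 and 12.5 FPKM. Rasgrp1, the RAS exchange factor of thymocytes, was at 202 and 47.5 FPKM, a difference of 2.06, and the adaptor Grb2 at 20.8 and 86.5, just past the bound. Rasgrp1 was short of 4-fold when rescaled by the median ratio, and Grb2 with the same total and with the scores.

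Tet2 was the lowest of the 9 genes in both tumours. It had 0.530 FPKM in the Peyer's patch lymphoma and 7.32 in the thymic lymphoma, a difference of -2.44. At such low levels the added 1 weighs heavily, and the plain ratio of the values was 13.8. The other TET genes stood slightly the other way, with Tet1 at 16.0 and 11.2 FPKM and Tet3 at 7.30 and 4.66. Tet2 thus made up the least of the TET transcripts in the Peyer's patch lymphoma, with Tet1 at 30.3 times and Tet3 at 13.8 times its level, and ranked between them in the thymic lymphoma. The DNA methyltransferases were not all on one side. Dnmt3a was at 66.3 and 147 FPKM, Dnmt3b at 5.01 and 12.1, and the maintenance enzyme Dnmt1 at 134 and 49.8. Mbd4, a glycosylase that removes mismatched thymine, was the only other of 14 measured genes of DNA methylation past 4-fold, at 18.7 and 167 FPKM.

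Runx1 had 15.2 FPKM in the Peyer's patch lymphoma and 85.4 in the thymic lymphoma. Its difference of -2.41 came at a higher level than those of the other 7. Runx3, its relative of CD8 and effector T cells, was at 3.74 and 9.32 FPKM, a difference of -1.12. Cbfb, the partner that every RUNX protein needs, was at 396 and 100.5 FPKM, the opposite direction. Cbfb stood at 26.0 times Runx1 in the Peyer's patch lymphoma and 1.18 times in the thymic lymphoma. The corepressor genes Tle3 (125 and 18.2 FPKM) and Sin3a (252 and 42.9) were higher by 4-fold or more in the Peyer's patch lymphoma. Gata3, a T cell factor, was at 178 and 377 FPKM. Of 11 measured RUNX family and partner genes, 8 lay above 0, and Runx1 alone was 4-fold higher in the thymic lymphoma, which it was not after rescaling to the same total or with the deposited scores (-1.89 and -1.95).

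Tumour suppressors of T cell malignancy as a list were centred near 0. Of 39 listed 34 were measured, 18 below and 16 above 0, with a median of -0.08 whose sign changed with the scaling. The 4 that were higher by 4-fold or more in the thymic lymphoma were Nf1, Tet2, Runx1 and Cdkn1b, the very genes picked for study, and among the other 30 there were 0. The 4 became 5 when rescaled by the median ratio, 2 with the same total and 1 with the scores. Higher by 4-fold or more in the Peyer's patch lymphoma were the NF-kappaB inhibitor Tnfaip3 (28.7 and 4.84 FPKM), the histone methyltransferase Kmt2d (44.5 and 9.39) and the DNA damage kinase Atm (49.5 and 11.3). Trp53 was at 31.2 and 63.6 FPKM, Ikzf1 at 175 and 97.6, and Bcl11b at 38.9 and 22.1. The oncogene list had 28 of 40 measured and a median of 0.36. Rhoa (47.1 and 358 FPKM), Ccnd2 and the kinase Jak3 (10.4 and 47.9) were higher by 4-fold or more in the thymic lymphoma, and 0 in the Peyer's patch lymphoma. These counts of 3 and 0 became 2 and 1 with the same total and 2 and 0 with the scores.

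**Figure D3:**
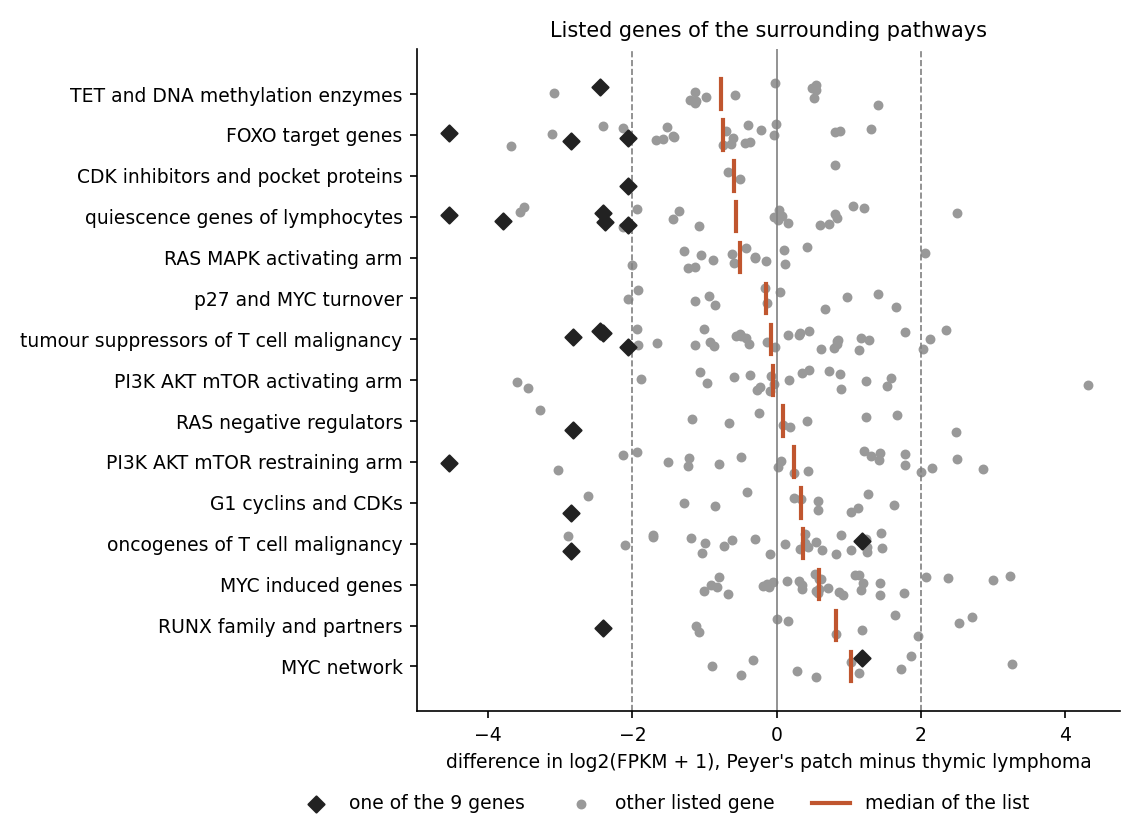
Differences in log2(FPKM + 1), Peyer's patch minus thymic lymphoma, of the measured genes of 15 pathway lists, with diamonds for the 9 genes studied, grey points for other listed genes, a bar for the median of each list and dashed lines at 4-fold. The FOXO family, 3 genes with a median of -2.38, is not drawn, and the medians drawn run from -0.77 for the TET and DNA methylation list to 1.03 for the MYC network, and most diamonds lie at the low end of their list.

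Myc was the 1 gene of the 9 that was higher in the Peyer's patch lymphoma. It was at 229 FPKM there and 100.3 in the thymic lymphoma, a difference of 1.18, which is short of 4-fold. It lay at percentile 90.8 of all levels in the Peyer's patch lymphoma and 79.9 in the thymic lymphoma, and ranked 1694 of all genes counted from the Peyer's patch side. Its partner Max was at 125 and 85.2 FPKM. The antagonists that compete for MAX were higher in the same tumour in 3 of the 6 named here. Mxd3 was at 113 and 10.8 FPKM, a difference of 3.27, Mnt at 42.7 and 12.2, and Mxd4 at 69.8 and 33.7. Mxd1 was at 2.20 and 4.97 FPKM, Mxi1 at 19.5 and 24.6, and Mga at 40.2 and 57.1. Of the 11 measured network genes 8 lay above 0.

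Genes that MYC induces lay mostly above 0. Of 35 listed 33 were measured, and 24 lay above 0, against 51.4% of all genes, with a median of 0.59. Over all genes in the highest quintile of mean level the median was 0.31, although the list also holds genes below that quintile, among them Slc7a5 and Pes1. With the level trend removed the median of the list was 0.38. With the deposited scores 17 of the 33 lay above the median of all genes and 16 below it, so the lean was not kept on that scale. Of the 33, 4 were higher by 4-fold or more in the Peyer's patch lymphoma and 0 in the thymic lymphoma. They were the amino acid transporter gene Slc7a5 (87.5 and 8.34 FPKM) and the ribosome biogenesis genes Pes1 (74.0 and 8.38), Ppan (131 and 24.3) and Rcl1 (106 and 24.5). Among abundant members Npm1, nucleophosmin, was near level at 2467 and 2544 FPKM, and Hspe1 was at 1353 and 1055. Some other abundant members differed more, with Nop58 at 1400 and 515 FPKM, Ldha at 1163 and 707 and Pkm at 1074 and 702. Fbl, fibrillarin, was at 36.5 and 74.6 FPKM, the lowest difference of the list at -1.01.

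Levels within each tumour can also be given as ratios, which do not change when a whole library is rescaled. The level of Myc in the Peyer's patch lymphoma was 42.1 times that of Cdkn1b, 88.7 times that of Nf1, 110 times that of Foxo3 and 238 times that of Pik3ip1. In the thymic lymphoma the same ratios were 3.87, 4.13, 2.42 and 2.25. The ratio to the growth gene Ccnd2 was 67.7 in the Peyer's patch lymphoma and 3.29 in the thymic lymphoma, a 20.6-fold shift beside 21.5-fold for Nf1. The ratio to Runx1 was 15.0 in the Peyer's patch lymphoma and 1.18 in the thymic lymphoma. The shift between the lymphomas ran from 10.9-fold for Cdkn1b to 106-fold for Pik3ip1. These are ratios of plain FPKM, and those to Pik3ip1 are uncertain, since it had 0.959 FPKM in the Peyer's patch lymphoma. The genes were picked with these values known, so the shifts are a description. Most of each shift lay in the other gene, since Myc itself differed 2.28-fold.

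Transcript length and level moved with the differences over all genes, weakly. Of the 9 genes, 6 were in the quintile with the longest annotated transcripts, from 5861 bases for Runx1 to 11917 bases for Nf1. In that quintile 14.6% of genes were higher by 4-fold or more in the thymic lymphoma, against 9.24% in the shortest quintile. Likewise 6 of the 9 were in the lowest quintile of mean level, where 17.0% were, against 6.37% in the highest quintile. Across genes, which are not replicates, Spearman's rho with the difference was -0.08 for length (7844 genes) and 0.12 for mean level. With the length trend removed 7 of the 9 genes were higher by 4-fold or more in the thymic lymphoma, where 11.2% of all genes were. With the level trend removed 6 of the 9 were, and 11.1% of all genes. The 9 were picked on this contrast, and a part of length or level in their differences was not tested. In the table, 3 genes overlap a gene studied on the opposite strand. Evi2a (8.55 and 25.7 FPKM) and Evi2b (96.8 and 95.4) lie within Nf1, and Gm12592 (7.54 and 4.21) overlaps Pik3ip1. The libraries were stranded, and whether the counting used strand is not given in the sources used here.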

How the data were processed

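Stranded mRNA libraries were prepared from RNA of lysed tumours, per the labels' protocols, and TopHat, Cufflinks, Picard and GATK with build mm9 are named in the submitters' processing notes. The sources used here give no versions, no annotation and no rule for which genes the table lists. Per the file headers, the authors deposited 1 FPKM and 1 standard score per gene and library. Those FPKM values were taken to be log2(FPKM + 1), which no source states. They reach 20.65, none is below 0, and the smallest comes to 6.99 double-precision steps if base 2 is taken, against 10.09 for natural logarithms. The deposited score is a linear function of that log2 value per library (largest residual 1.2e-08) and refers to a wider set of genes. The table gives no counts, so depth is unknown and no counting interval can be given.

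Genes reaching 1 FPKM in either library were compared, which left out 4 of 8249. With 1 library per group there was no test. The difference on the log2(FPKM + 1) scale understates that of low genes. Members, 16 pathway lists and 9 marker lists were chosen with earlier results of these data known. Named genes were the 9 members and their relatives, the up to 4 genes of each pathway list furthest apart in each direction past 4-fold and the 2 with the highest mean, and up to 3 of each marker list. Some listed genes are not reported here. Other listed genes that are named, and the genes set in ratios, were chosen after their values were seen. GENCODE M21 gave lengths and overlaps by symbol for 95.1% of genes, and promoter windows came from RefSeq, both of a build other than mm9. Fold counts were tested on simulated data. Python 3.11.15, pandas 2.3.3, scipy 1.17.1 and matplotlib 3.10.9 were used.

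Alternatives were pseudocounts of 0.1 and 5, no filter or 5 FPKM, thresholds of 2-fold and 8-fold, 4 rescalings, the deposited scores multiplied by the average of their SDs to return to log2 units, and removal of the trend with transcript length or mean level (lowess, span 0.3).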

Additional observations from a re-analysis of the deposited data

How the results depend on the processing

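All 8 genes higher in the thymic lymphoma kept that direction under each alternative run, and Myc kept its own, between 1.01 and 1.72. The number of the 8 at least 4-fold apart was 4 with a pseudocount of 5, 5 with libraries rescaled to the same total, 4 with the deposited scores and 2 at an 8-fold threshold. The share of all genes higher by 4-fold or more in the thymic lymphoma also fell from 12.0%. It was 7.90% with that pseudocount, 7.77% with the same total and 7.57% with the scores. Rescaling to the same total and the scores move the median of all genes from 0.05 to 0.57 and 0.48, and the total without mitochondrial genes moves it to 0.21. Mitochondrial genes hold 64.3% (Peyer's patch) and 72.4% (thymic) of summed FPKM, so the total follows a few genes. Cdkn1b ranged from -2.24 to -1.37, Tet2 from -3.56 to -1.16, Foxo1 from -2.81 to -1.49, Nf1 from -3.19 to -1.95 and Runx1 from -2.49 to -1.89. Foxo3 (-4.26 to -2.72), Pik3ip1 (-5.40 to -3.06) and Ccnd2 (-3.14 to -2.09) stayed past 4-fold in each. With a 2-fold threshold 1 gene, Myc, was counted as higher in the Peyer's patch lymphoma. Over all genes, 1637 at least 4-fold apart became 1067 with a pseudocount of 5, 4139 at 2-fold and 583 at 8-fold. Of these 1637, 60.5% were higher in the thymic lymphoma, and the share was 34.9% with the same total, 33.9% with the scores and 52.2% with the total without mitochondrial genes. The medians of 4 lists changed sign with scaling or length, those of tumour suppressors (-0.15 to 0.44), PI3-kinase activators (-0.13 to 0.47), RAS activators (-0.57 to 0.06) and p27 and MYC turnover (-0.22 to 0.39). No paired analysis was possible because each group has 1 library and no test was made. Without counts or replicates, values under about 1 FPKM, such as Pik3ip1 and Tet2 in the Peyer's patch lymphoma, carry an error that cannot be given here.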
